A study of Gossypium hirsutum with 7 samples.

Results

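Ovules in which the homeodomain gene GhHD-1 had been silenced were set against wild-type ovules, 2 arrays of each out of the 7 arrays of the study. The other 3, from GhHD-1 over-expression plants, entered the test only through the shared estimate of spread. Their values are printed beside some genes. All were whole ovules of upland cotton (Gossypium hirsutum) taken on the day the flower opens (0 days post anthesis) from glasshouse plants, and the labels number the arrays of a group as biological replicates. One group is labelled only as wild type and the other as transgenic with GhHD-1 silenced. The sources used here do not give the construct, its promoter, the cultivar or the number of lines behind the silenced arrays. Per the labels, ovules to be compared were gathered on 1 date in 1 glasshouse. The question was which genes GhHD-1 may regulate as fibres start. The arrays were selected by title, and all 23977 probe sets other than the AFFX and RPTR controls were compared as silenced minus wild type.

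GhHD-1 belongs to the homeodomain-leucine zipper factors, whose class IV acts in the epidermis and, in Arabidopsis, in leaf hairs. A cotton fibre is a single cell of the seed coat epidermis that swells out of the ovule surface and then elongates without dividing. Its growth needs a wall that yields (expansins and xyloglucan enzymes), wall precursors, and hormones including ethylene, auxin and gibberellin. In whole ovules fewer fibre initials and less RNA per initial cannot be told apart.

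Values are log2 intensities per probe set, so a difference of 1 is 2-fold. The lowest 5% of probe sets lay under 3.50 to 3.65 on these 4 arrays, and values near 4 stand close to that floor. Of the 23977 probe sets only 324, from 246 genes, carry a gene name in the annotation used, so named genes give a narrow view of the array. The annotation ties no probe set to GhHD-1, so its own level is not reported here and the silencing was not checked.

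The 2 wild-type arrays were further from each other than the 2 silenced arrays were. Between the wild-type arrays 880 probe sets (3.67%) differed by at least 2-fold, 634 of them lower on replicate 2, while between the silenced arrays 17 (0.0709%) did. The median gap between the arrays of a group was 0.23 for wild type and 0.12 for silenced. Controls outside the comparison also differed between the wild-type arrays: at RPTR-Ghi-U57609-2_s_at, a reporter, wild type gave 5.09 on replicate 1 and 11.88 on replicate 2, and the silenced arrays gave 9.73 and 9.85. The 36 poly-A spike probe sets averaged 5.28 and 8.78 on the wild-type arrays and 5.46 and 6.95 on the silenced ones. Each wild-type array is therefore shown singly below, and the part of these differences in the results was not tested.

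No probe set passed the test between silenced and wild-type ovules. Limma, fitted to all 7 arrays, called 0 of 23977 (0%) at an adjusted p of 0.05; the smallest adjusted p was 0.0558, shared by 6 probe sets. At an unadjusted p under 0.05 there were 3472 (14.5%), 1761 below and 1711 above wild type. The number of arrays limits the precision, with a median standard error (SE) of 0.16. Leaving out wild-type replicate 1 raised the count of calls from 0 to 73, and leaving out wild-type replicate 2 raised it to 35. Those fits hold 1 wild-type array each and borrow its spread from the other groups. All differences below are given as values that did not pass.

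The sizes of the differences were described without a test. Both silenced arrays lay on the same side of both wild-type arrays, called apart here, at 10874 probe sets (45.4%), 5226 below (21.8%) and 5648 above (23.6%). With a mean difference of at least 2-fold as well, 349 (1.46%) remained, 205 (0.855%) below wild type and 144 (0.601%) above it. Only 15 were apart by 4-fold or more, 8 below and 7 above. Of the 349 apart by 2-fold, the silenced mean was 2-fold away from each wild-type array at 155 (0.646% of all tested), 92 below and 63 above. For the other 194, 1 wild-type array stood nearer than that. Differences of this size were rarest at both ends of the signal range: there were 7 among 2147 probe sets with a mean of 11 or more and 18 among 4282 with a mean under 5, against 136 among 5781 with a mean from 7 to 9.

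The direction of these differences depended on the wild-type array. The silenced mean lay at least 2-fold below wild-type replicate 1 at 473 probe sets and 2-fold above it at 126. Against wild-type replicate 2 it lay 2-fold below at 373 and above at 379. With the medians of the arrays made equal, the 349 became 172 below and 176 above. At 40 probe sets the silenced mean lay at least 2-fold below 1 wild-type array, whichever it was, and at least 2-fold above the other.

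**Figure D1:**
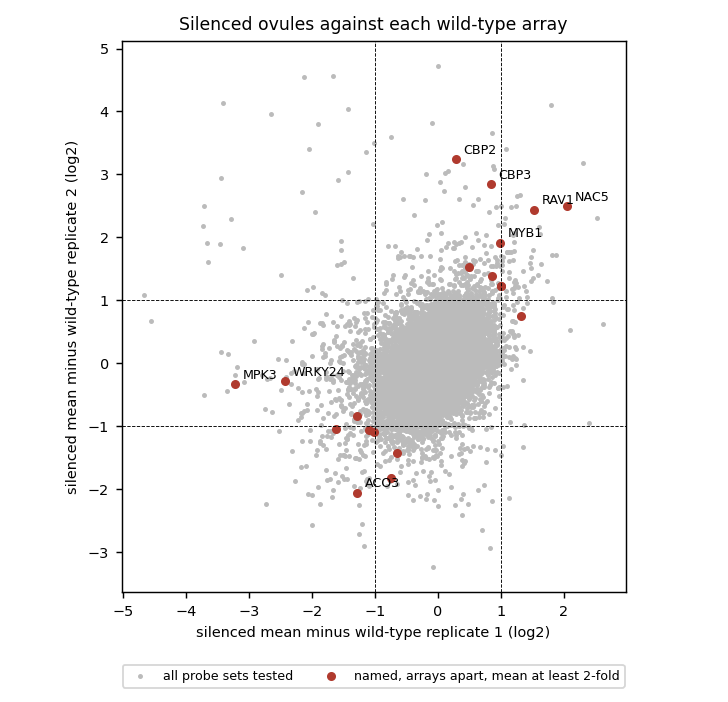
Silenced mean minus wild-type replicate 1 (horizontal, log2) against silenced mean minus wild-type replicate 2 (vertical, log2), 1 point per probe set, with the 19 named probe sets that were apart with a mean difference of at least 2-fold in red and dashed lines at 2-fold. ACO3, NAC5/NAC8 and RAV1 lie past 2-fold from each wild-type array. MPK3 and WRKY24 lie past 2-fold only from replicate 1, and CBP2 and CBP3 only from replicate 2. Both axes hold the same silenced mean.

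Of the named probe sets 19 (5.86%) were apart by 2-fold, 9 below and 10 above wild type, beside 1.46% over all probe sets. At 8 of the 19 the silenced mean was 2-fold away from each wild-type array. Those below were probe sets of ACO3, ACS3/ACS6, EXPA4 and rgp1. Those above were probe sets of KT, HB4, RAV1 and NAC5/NAC8.

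Expansins, secreted proteins that loosen cell walls as they grow, were below wild type at every probe set named for them. All 7 probe sets, from 4 genes, had a mean below wild type, and 6 (85.7%) were apart, where 21.8% of all probe sets were apart below. Their median difference was -0.75, beside 0.02 over all probe sets. Against wild-type replicate 1 alone the median was -0.58 with 6 of 7 below, and against replicate 2 alone it was -0.84 with 7 of 7 below.

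EXPA4, listed also as EXP and EXPA13D, was read by 3 probe sets that gave the same order. At Ghi.704.1.S1_at it read 7.97 and 7.93 on the wild-type arrays and 6.84 and 6.92 on the silenced arrays. The groups were apart there by more than either pair's gap, 2.10-fold lower in the silenced line (log2 difference -1.07, SE 0.23, adjusted p = 0.172). GhiAffx.26845.1.S1_at read 8.99 and 8.56 in wild type and 7.97 and 7.46 in silenced ovules (-1.06, SE 0.25, adjusted p = 0.185). The bright Ghi.704.1.A1_s_at read 10.96 and 10.89 against 10.46 and 10.34, a smaller -0.53 (SE 0.16, adjusted p = 0.232). All 3 were apart. On the over-expression arrays the first of them read 7.22 to 7.93, between the groups and up to the wild-type level.

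The other expansins leaned more on wild-type replicate 2. EXPA3D, named after its values were seen, read 8.92 and 10.01 in wild type and 8.08 and 8.29 in silenced ovules (-1.28, SE 0.42), and its dimmer probe set differed by -0.43. EXPA1, also listed as Exp2 and EXPA8, read 8.34 and 9.53 against 8.26 and 8.11 (-0.75, SE 0.42, adjusted p = 0.453). Wild-type replicate 1 thus lay within 0.1 of a silenced array for EXPA1, and most of that difference came from replicate 2. EXPA11A read 9.96 and 10.69 against 10.13 and 10.33, and its groups overlapped.

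Within the list of wall polysaccharide genes, XTH and rgp1 were among the 12 lowest moderated t of named probe sets. XTH, a xyloglucan endotransglucosylase/hydrolase, which cuts and rejoins the tethers between cellulose fibrils, read 9.67 and 9.20 in wild type and 8.44 and 8.43 in silenced ovules at Ghi.5744.1.S1_at. It was apart and 1.99-fold lower (SE of the log2 difference 0.21, adjusted p = 0.157). The over-expression arrays read 8.12 to 8.54 there, also below wild type and around the silenced values. Its brighter probe set read 12.48 and 11.88 against 12.01 and 11.65, where the groups overlapped. A further gene, listed as XTH and XTH1 and named after its values were seen, read 5.94 and 6.72 against 5.49 and 5.10 (-1.04, SE 0.36) and was apart at its dimmer probe set too (-0.48).

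The gene listed as GRPL1, GRPL2 and rgp1, called rgp1 here, is named for reversibly glycosylated polypeptides, which in plants convert the UDP-arabinose used for wall polymers. All 4 of its probe sets were apart and below wild type. Ghi.4598.3.A1_at read 7.97 and 8.05 in wild type and 7.01 and 6.92 in silenced ovules, a 2.07-fold difference (log2 -1.05, SE 0.31, adjusted p = 0.235). The brighter Ghi.4598.2.S1_at read 10.52 and 10.63 against 9.61 and 9.66 (-0.94, SE 0.30, adjusted p = 0.251). At both, the wild-type arrays lay close together and the silenced mean was nearly as far from one as from the other. Ghi.4598.3.S1_s_at had the lowest moderated t of all named probe sets (-0.91, SE 0.16, adjusted p = 0.135), but its silenced values of 3.58 and 3.44 stood at the floor; it passed, at an adjusted p of 0.0487, when wild-type replicate 1 was left out, and its adjusted p ranged from 0.0487 to 0.728 over the alternatives. GhiAffx.1589.6.S1_at differed least (-0.27, SE 0.12).

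**Figure D2:**
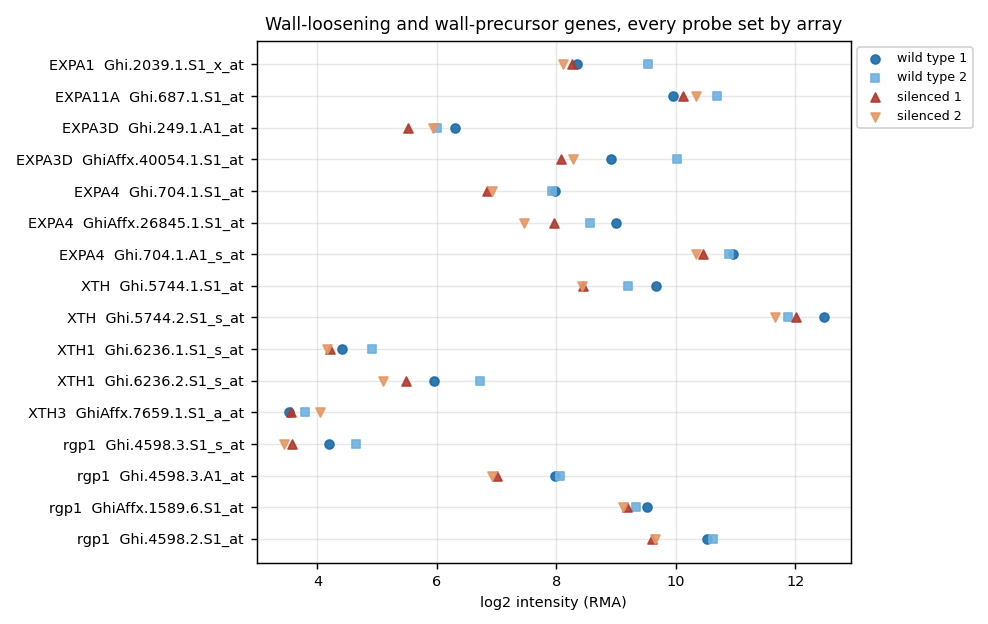
Log2 intensity (horizontal) of every probe set of the expansin, XTH and rgp1 genes on the 2 wild-type (blue) and 2 silenced (red, orange) arrays. Silenced values lie left of both wild-type values for all 3 probe sets of EXPA4 and all 4 of rgp1, while the groups overlap for EXPA11A, XTH3 and the brighter XTH probe set.

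The wider list of wall polysaccharide genes did not share this lean. Of its 23 probe sets from 15 genes, 13 were below and 10 above wild type, with a median of -0.08. Of the 23, 13 (56.5%) were apart, 8 below and 5 above, beside 45.4% of all probe sets. CelA1, a cellulose synthase subunit of fibres, lay above wild type at both its probe sets, with 6.08 and 6.53 against 6.59 and 6.66 at the brighter (0.32). GAE2 read 11.07 and 10.84 against 11.24 and 11.25. The sucrose synthase gene Sus1, at 13.61 and 13.39 against 13.64 and 13.50, overlapped. XTH, rgp1 and the gene listed as XTH1 thus held the low end of a list whose remaining probe sets differed by -0.47 to 0.41.

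Genes of ethylene synthesis and response lay on both sides of wild type. Ethylene is made from S-adenosylmethionine by ACC synthase and then ACC oxidase, and it promotes fibre elongation in cultured cotton ovules. ACO3, an ACC oxidase, read 10.67 and 11.44 in wild type and 9.35 and 9.43 in silenced ovules, 3.18-fold lower (log2 -1.67, SE 0.36, adjusted p = 0.171). It was the widest difference below wild type among named probe sets whose silenced mean was 2-fold away from each wild-type array. The over-expression arrays read 10.31 to 11.27, overlapping wild type.

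Upstream of ACO3, the S-adenosylmethionine synthetase gene listed as MAT and SAMS read 12.57 and 12.46 against 12.02 and 11.92 (-0.54, SE 0.16, adjusted p = 0.225) and was apart. The gene listed as ACS3 and ACS6, a symbol used for ACC synthase, read 10.26 and 9.69 against 8.62 and 8.68 (-1.32). It had a large SE of 0.91, and it was named after its values were seen. The over-expression arrays, which share the estimate of spread, ran from 7.96 to 11.29 there. ACO1, named at 2 loci, overlapped at the first (-0.16, SE 1.16) and lay above wild type at the second (0.53). At the first the over-expression arrays ran from 7.90 to 11.84.

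The ethylene response factors split. ERF3 read 9.05 and 9.44 in wild type and 8.35 and 8.56 in silenced ovules (-0.79, SE 0.18, adjusted p = 0.175). ERF9 was below wild type at both its probe sets, by -0.96 and -0.78. ERF7 lay the other way, at 6.01 and 6.52 against 6.91 and 6.93 (0.66, SE 0.24, adjusted p = 0.286), and ERF8 differed by 0.49. All 4 genes were apart at each probe set. Over the 14 ethylene probe sets from 10 genes, 7 were below and 7 above, and 11 (78.6%) were apart (5 below, 6 above), beside 45.4% of all probe sets. The median was -0.0046, and it was 0.21 against wild-type replicate 1 and -0.09 against replicate 2.

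The highest difference above wild type among named probe sets was that of a NAC factor. A NAC gene with the names NAC5 and NAC8 read 7.41 and 6.97 in wild type and 9.43 and 9.50 in silenced ovules, 4.85-fold higher (log2 2.28, SE 0.76, adjusted p = 0.265). NAC factors are a plant-specific family with roles in stress, senescence and wall thickening. The silenced arrays lay 2.06 above the higher wild-type array on average. The 3 over-expression arrays, which share the estimate of spread, ran from 6.41 to 8.87. Of 12 NAC probe sets from 7 genes only this one and 2 of NAC7 were apart (25%, beside 45.4% of all probe sets), and NAC7 was below wild type (-0.54 and -0.28).

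RAV1, of the AP2 and B3 domain factors, was apart and above wild type at all 3 of its probe sets. GhiAffx.30941.1.S1_s_at read 7.17 and 6.26 against 8.66 and 8.74 (1.99, SE 0.83, adjusted p = 0.341). The over-expression arrays, which share the estimate of spread, ran from 5.52 to 8.35 there. GhiAffx.30941.1.A1_s_at read 5.13 and 5.32 against 5.76 and 6.14 (0.72, SE 0.17, adjusted p = 0.185). The dim Ghi.8341.1.S1_x_at read 4.13 and 4.40 against 4.84 and 4.83 (0.57, SE 0.17). RAV1 thus kept its side of wild type at every signal level, while the other 4 probe sets of the AP2 list, from CBF genes, differed by -0.41 to 0.10.

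The homeobox genes lay in opposite directions. HB4 read 9.52 and 9.30 in wild type and 10.42 and 10.65 in silenced ovules, 2.18-fold higher (log2 1.12, SE 0.24, adjusted p = 0.172). HOX3, a class IV homeodomain factor needed for fibre elongation, read 10.16 and 10.60 against 9.94 and 10.06 (-0.38, SE 0.26, adjusted p = 0.519). HB4 was apart by more than the gaps within pairs, and HOX3 was apart by 0.10 only.

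Among MYB, bHLH and WD-repeat regulators, the families that pattern leaf hairs in Arabidopsis and act in fibre initiation, MYB1 had the highest difference. It read 9.003 and 8.08 in wild type and 10.00 and 9.99 in silenced ovules (1.45, SE 0.35, adjusted p = 0.190). GHTTG1, the WD-repeat member, read 9.79 and 9.64 against 9.39 and 9.40 (-0.32, SE 0.11, adjusted p = 0.277). GHMYB36 read 8.93 and 9.41 against 8.73 and 8.85 (-0.38, SE 0.17). Both were apart below wild type. Of the 11 probe sets 5 were apart below and 2 above, beside 21.8% and 23.6% of all probe sets. The 2 above, MYB1 and 1 other, were apart by at least 2-fold, beside 0.601% of all probe sets. None of those below was. The fibre MYB gene myb109 overlapped at 5.61 and 6.86 against 6.45 and 6.18. The list's median was 0.05 over 10 genes, and it was -0.06 against wild-type replicate 1 and -0.24 against replicate 2.

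Transport genes were few but lay above wild type together. KT had the highest moderated t of all named probe sets: it read 8.06 and 7.83 in wild type and 9.01 and 9.12 in silenced ovules (1.12, SE 0.17, adjusted p = 0.113). NHX1, a vacuolar exchanger of sodium or potassium for protons, read 10.51 and 10.43 against 10.98 and 11.06 (0.55, SE 0.23). The aquaporin NIP6.1 read 5.39 and 4.55 against 5.85 and 5.85 (0.88, SE 0.31). All 3 were apart above, beside 23.6% of all probe sets. The list holds only these 3, and KT was picked among probe sets that were apart. SOS2, a protein kinase that in Arabidopsis controls sodium export, read 10.76 and 10.48 against 11.01 and 11.00 (0.38, SE 0.13, adjusted p = 0.274).

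Auxin probe sets lay mostly above wild type, with 1 gene, Aux4, holding more of them than any other. Over 8 auxin probe sets from 5 genes, 6 were above, with a median of 0.32, and 5 were apart above, beside 23.6% of all probe sets. Several of these 5 were of Aux4. Of the 5 genes 3 were above at every probe set, and against wild-type replicate 2 alone 3 of the 8 probe sets were below. Aux4 differed by 0.99 and 1.01 at a pair of its probe sets and by -0.0057 and 0.16 at the others, so its probe sets did not give 1 value. The gibberellin receptor gene GID1-4 read 6.95 and 6.77 against 7.59 and 7.48 (0.68, SE 0.15, adjusted p = 0.175) and was apart. GID1-2, of the same receptor family, read 9.60 and 8.86 against 8.72 and 8.82 (-0.46, SE 0.46), and GAI2, named like the repressors these receptors remove, differed by -0.22. The receptors thus lay on opposite sides, with GID1-2 close to wild-type replicate 2.

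Peroxidases, which can stiffen walls by cross-linking, also divided. The gene pod7 read 8.98 and 8.80 in wild type and 7.85 and 8.04 in silenced ovules, 1.93-fold lower (SE of the log2 difference 0.20, adjusted p = 0.159). POX10 read 6.19 and 5.84 against 5.15 and 5.16 (-0.86, SE 0.28, adjusted p = 0.256). By contrast pod5 read 5.52 and 5.46 against 6.18 and 6.19 (0.69, SE 0.24, adjusted p = 0.277). All 3 were apart, but pod7 and pod5 were picked among probe sets that were apart. The redox list of 22 probe sets had 12 below, 10 above and a median of -0.04. Of the 22, 6 were apart below and 4 apart above (45.5%, beside 45.4% of all probe sets).

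Among lipid genes a thioesterase gave the widest difference. FatB1, which releases saturated fatty acids from the plastid, read 7.98 and 7.65 against 7.09 and 6.93 (-0.81, SE 0.18, adjusted p = 0.175). Its brighter probe set overlapped, at 9.73 and 9.73 against 9.66 and 10.04, so the probe sets of FatB1 did not agree. SMT2-2, of sterol synthesis, differed by -0.25, and KCS10 by 0.31 at the floor. Of 16 lipid and cuticle probe sets 4 (25%) were apart, beside 45.4% of all probe sets, and the median was 0.04.

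**Figure D3:**
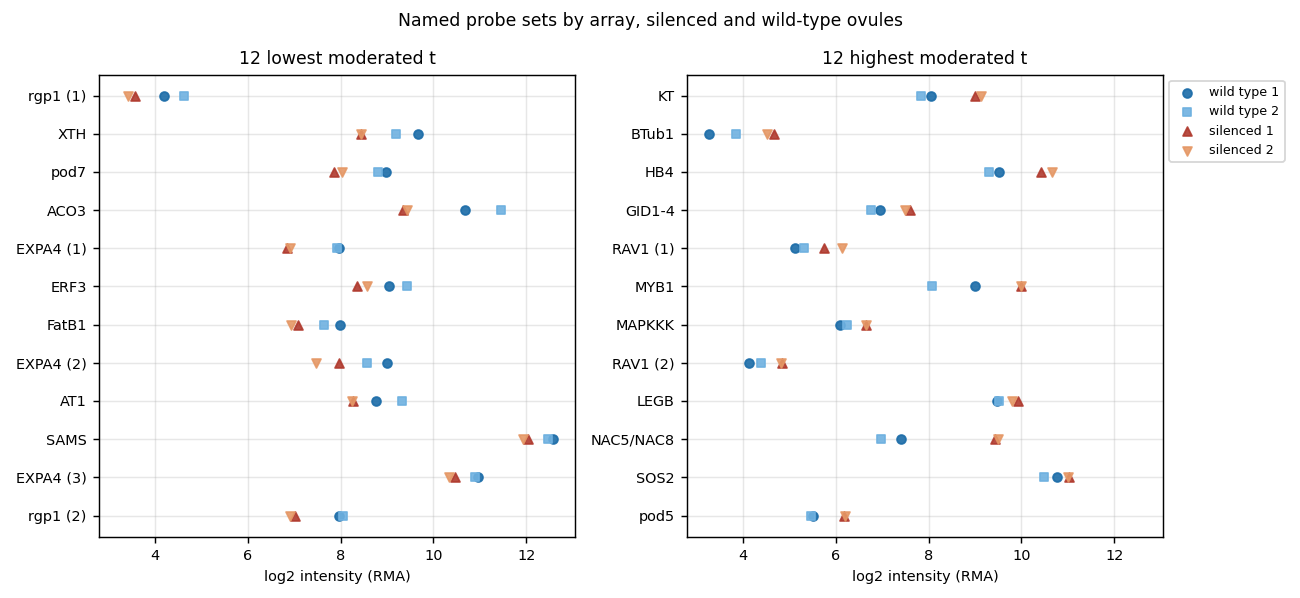
Log2 intensity (horizontal) on the 2 wild-type (blue) and 2 silenced (red, orange) arrays for the named, non-overlapping probe sets with the 12 lowest (left) and 12 highest (right) moderated t; numbers in brackets mark probe sets of the same gene. The silenced pair is the tighter at ACO3, MYB1 and NAC5/NAC8, and none of these probe sets passed the adjusted test.

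The remaining probe sets of that plot differed by less or stood near the floor. AT1, whose role the annotation does not give, read 8.76 and 9.33 against 8.28 and 8.24 (-0.79, SE 0.22, adjusted p = 0.222). A beta-tubulin listed as BTub1 and BTub2 read 3.28 and 3.86 against 4.67 and 4.53 (1.03, SE 0.21, adjusted p = 0.158), so its wild-type values were at the floor. A MAPKKK read 6.09 and 6.24 against 6.65 and 6.66 (0.50, SE 0.12, adjusted p = 0.201). The other probe set of that MAPKKK read 5.18 and 5.28 against 5.57 and 5.28 (0.20), and its groups overlapped. The seed storage gene LEGB read 9.48 and 9.51 against 9.92 and 9.79 (0.36, SE 0.11, adjusted p = 0.250).

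Several wide mean differences rested mostly on 1 wild-type array, and these genes were named after their values were seen. MPK3, a MAP kinase of stress signalling, read 10.84 and 7.95 in wild type and 7.49 and 7.76 in silenced ovules. WRKY24, of a family of defence-related factors, read 8.29 and 6.16 against 5.86 and 5.88. The silenced mean was thus -3.22 and -2.42 from replicate 1 but only -0.33 and -0.29 from replicate 2. CBP2 and CBP3 leaned the other way: CBP2 read 8.93 and 5.98 against 9.06 and 9.38, and CBP3 read 7.12 and 5.11 against 8.05 and 7.87. For CBP3, unlike CBP2, wild-type replicate 1 also lay well below both silenced arrays, though by less than 2-fold. Every one of these was apart, although its wild-type arrays differed by 2.01 to 2.95.

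The list of WRKY factors and MAP kinases had 11 of 14 probe sets below wild type, with a median of -0.30, and 9 were apart below, beside 21.8% of all probe sets. Probe sets of the MPK3 gene above made up 6 of the 14, and all 6 had a mean below wild type. Of these, Ghi.7954.2.S1_at read 7.05 and 5.97 against 5.98 and 5.98 and overlapped. WRKY15 differed by -0.34 and -0.33 at its probe sets, with both apart.

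**Figure D4:**
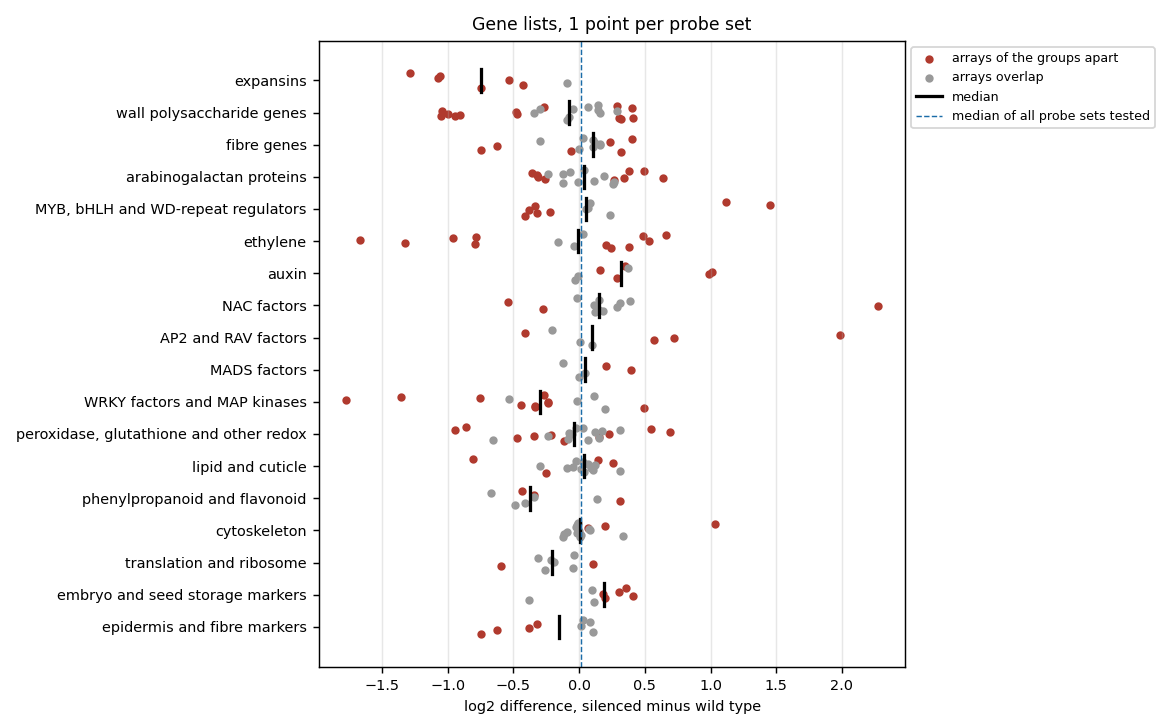
Log2 difference, silenced minus wild type (horizontal), of each probe set in 18 gene lists; red points are probe sets whose 2 silenced and 2 wild-type arrays do not overlap, black bars are list medians and the dashed line is the median of all probe sets tested, 0.02. The expansins lie wholly left of 0, with a median of -0.75.

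Genes of fibre growth lay on both sides of wild type, and some epidermis and fibre markers were apart below it. The fibre list holds genes known from the published study and is not independent of it. Of its 14 probe sets 5 were below and 9 above, with a median of 0.10. Against wild-type replicate 1 alone 4 were below (median 0.29), and against replicate 2 alone 9 were below (median -0.04). E6, a protein abundant in fibres, read 10.09 and 10.70 against 9.85 and 9.69 (-0.62, SE 0.34, adjusted p = 0.440), and the small GTPase gene Rac9 differed by 0.24 at the floor. Of 8 epidermis and fibre markers, E6, EXPA1, HOX3 and GHTTG1 were apart below wild type (50%, beside 21.8% of all probe sets). The other 4 probe sets, among them the lipid transfer protein at 12.01 and 12.42 against 12.29 and 12.35, overlapped. The median of the 8 was -0.15, and it was -0.06 against wild-type replicate 1 and -0.39 against replicate 2.

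Fasciclin-like arabinogalactan proteins, of the cell surface, gave 9 below and 10 above over 19 probe sets from 12 genes, with a median of 0.04. FLA4 read 11.29 and 11.02 against 11.82 and 11.77 (0.64, SE 0.24, adjusted p = 0.298). FLA13 (-0.36) and FLA14 (-0.32) lay below wild type at the probe sets with their smallest p. FLA4, FLA13 and FLA14 were apart there, but the other probe sets of FLA13 and FLA14, brighter ones, overlapped. Of the 19 probe sets 4 were apart below and 5 apart above (47.4%, beside 45.4% of all probe sets).

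Phenylpropanoid and flavonoid genes had 6 of 8 probe sets below wild type and a median of -0.38, but it was -0.02 against wild-type replicate 1 and -0.71 against replicate 2. DFR, of anthocyanin and proanthocyanidin synthesis, read 12.93 and 13.23 against 12.77 and 12.53 (-0.43, SE 0.15, adjusted p = 0.279) and was apart. CCR1 read 7.80 and 9.05 against 7.68 and 7.82 and overlapped. Calcium sensor genes of the CBL family had a median of -0.21 over 4 probe sets (-0.36 against wild-type replicate 1, -0.03 against replicate 2), with CBL1 apart at both of its own (-0.60 and -0.48) and CBL2 at 0.15.

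Broadly expressed genes mostly gave small differences. The 16 cytoskeleton probe sets had a median of 0.0039, with 3 apart (18.8%, beside 45.4% of all probe sets). Among these 3 were the kinesin KCH1 (0.20) and the beta-tubulin BTub1 (1.03, with wild type at the floor). TUA10 overlapped at all its probe sets, at 0.33 and 0.07 near the floor and -0.12 at the bright one. Of 8 translation probe sets 7 were below wild type, with a median of -0.20. Against wild-type replicate 1 alone 4 were below with a median of -0.06, and against replicate 2 alone 7 were below with a median of -0.29. EF1A7 (-0.60) and EF1A1 (0.11) were apart (25%, beside 45.4% of all probe sets). EF1A7 read 10.93 and 10.12 on the silenced arrays at that probe set, and its brighter probe set overlapped (-0.05). RPS4 (-0.26) and RPL44 (-0.31) were lower on silenced replicate 2 than on replicate 1.

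Markers were used to check the tissue. MADS factors of floral organs and ovules were bright on all 4 arrays, with wild-type means from 9.01 to 13.53 and differences from -0.12 (SEPALLATA3) to 0.21 (MADS-2) and 0.39 (MADS-9). The ovule and seed coat list was met only by chalcone synthases, with wild-type means from 4.89 to 8.50 and a median difference of -0.34. That median was 0.09 against wild-type replicate 1 and -0.56 against replicate 2. CHS2 differed by 0.31, -0.49 and -0.41 at the probe sets with its smallest p. Of 8 embryo and seed storage probe sets 7 were above wild type and 5 were apart above, beside 23.6% of all probe sets, with a median of 0.19; MatP7 (0.18) and Mat5-D (0.30) stood near the floor. No probe set was annotated for the green tissue and pollen markers. The terpenoid and defence list held 3 probe sets, cdn1 (-0.12, at the floor), Chia7 (-0.03) and GLU (-0.03). The 2 histone probe sets had differences of -0.04 and 0.04, with HIS3 at 11.31 and 9.88 on the silenced arrays, and the gibberellin and brassinosteroid list a median of -0.23 over 4.

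Probe sets without a gene name had the smallest p. Below wild type these were GraAffx.6382.1.S1_at, at 7.45 and 7.73 against 5.83 and 5.87 (-1.74, SE 0.16), and GhiAffx.6053.1.S1_s_at, at 12.30 and 12.30 against 10.86 and 10.79 (-1.48, SE 0.14). Above it were GhiAffx.36723.1.S1_at, at 6.94 and 6.80 against 8.35 and 8.46 (1.53, SE 0.13), and GhiAffx.52955.1.A1_at, at 5.72 and 5.66 against 6.95 and 6.96 (1.26, SE 0.11). Each had an adjusted p of 0.0558 and differed by far more than the gap within either pair. At an adjusted p under 0.1 there were 23 probe sets, 11 below and 12 above wild type. None of these 23 carries a gene name, and 2 are annotated to a locus number only.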

How the data were processed

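Each sample of whole-ovule RNA was measured on its own Affymetrix cotton array (1 colour). The values deposited by the authors are log2 intensities per probe set. R 2.7.1, RMA and limma are the tools named per the submitters' processing notes, which give no further step. RMA equalises array distributions, which removes global shifts and compresses low signals. AFFX (103) and RPTR (52) controls were left out of the 24132 probe sets. Of the rest 697 had 1 gene, 46 several and 23234 none listed; all 697 matched RefSeq assembly Gossypium_hirsutum_v2.1, whose synonyms named 324. Probe sets ending in _s_at (9270) or _x_at (1556) can read related transcripts, so gene copies may be mixed.

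The test was that of limma 3.58.1 (R 4.3.3), fitted with lmFit to the 7 arrays, a mean for each group, and eBayes (4 residual and 3.01 prior degrees of freedom), two-sided, adjusted by Benjamini-Hochberg over 23977 probe sets at 0.05. The fit was tested on simulated data. Gene lists were described by counts and medians. Pattern matches whose other names show a different gene (a chitinase, a lipid transfer protein and katanin) were left out of the lists. Named genes were the 12 lowest and 12 highest moderated t among named, non-overlapping probe sets, the 3 smallest p of each list, HOX3, HB4, GHTTG1 and 4 unnamed probe sets; genes named for other reasons are marked or belong to a list described whole. Members and lists were chosen with earlier results of these data known. The labels do not say whether replicates came from separate plants, so p-values measure the spread between these samples. The planned search of promoters for a homeodomain motif was not run, because no sequence was used here. As alternatives the fit took the replicate number as a block, only the 4 arrays, each array left out, other priors, array weights, centring, cyclic loess, a dim filter and other thresholds.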

Additional observations from a re-analysis of the deposited data

Results flagged for a closer look

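A signal was found among the control probe sets, which the comparison leaves out. RPTR-Ghi-A06498-1_at, a reporter probe set, was 5.73 log2 units higher on average in the silenced ovules than in wild type. It read 9.99 and 10.15 on the silenced arrays and 4.08 and 4.59 on the wild-type arrays, so the groups did not overlap. The over-expression arrays read 4.635, 4.663 and 4.395, close to the wild-type values. The annotation used does not say what it detects.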

How the results depend on the processing

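The count of called probe sets was 0 in the fit of all 7 arrays. It was also 0 with an intensity trend, array weights, median centring, cyclic loess, only the 4 arrays compared, probe sets with a mean of at least 5, and an adjusted p of 0.01. A robust prior gave 7 (5 higher, 2 lower), and an adjusted p of 0.1 gave 23. Leaving out 1 array gave counts from 0 to 73, above 0 only without wild-type replicate 1 (73) or 2 (35). With the replicate number as a block the count was 0, with 2402 probe sets at an unadjusted p under 0.05 and a smallest adjusted p of 0.477. Same-numbered silenced and wild-type arrays deviated together with r = 0.098, so the numbers were not taken to pair the samples. The count apart by 2-fold, 349, was 1626 at 1.5-fold, 73 at 3-fold, and 385 to 752 when 1 array was left out (599 against wild-type replicate 1 alone, 752 against replicate 2 alone). Median centring gave 172 lower and 176 higher in place of 205 and 144. Signs turned only at differences near 0 or where an array of a pair stood apart. Median centring turned EF1A7 (0.020), Chia7 (0.036), Aux4 (0.063) and GLU (0.042) at 1 probe set each, and cyclic loess turned TUA10 (-0.011). Among the genes named by rule, leaving out 1 array gave ranges that crossed 0 for CHS2 (-0.83 to 0.016 and -0.10 to 0.38), TUA10 (-0.31 to 0.069), EF1A7 (-0.13 to 0.031), MPK3 (-1.07 to 0.0084), Chia7 (-0.16 to 0.090), FatB1 (-0.068 to 0.31), SEPALLATA3 (-0.36 to 0.12), FLA14 (-0.13 to 0.50 and -0.29 to 0.045), Aux4 (-0.059 to 0.047) and GLU (-0.28 to 0.23). Some further genes given in the text turned too when set against a single wild-type array: EXPA11A was 0.27, ACO1 0.29 and Sus1 -0.04 against replicate 1, and myb109 -0.54, HIS3 0.24 and the lipid transfer protein -0.10 (at its brighter probe set) against replicate 2. The cause of these turns was not tested, nor was that of the changed counts, apart from the thresholds themselves. Background correction could not be varied, since only summarised values were used.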
